A study of Arabidopsis thaliana with 14 samples.

Results

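The genes described here are TPS1 and TPS5 to TPS11, which encode trehalose 6-phosphate synthases and their close relatives, and TRE1, which encodes trehalase, in Arabidopsis thaliana seedlings. They were taken by locus, through the transcript that each array probe names. The 9 genes had 13 of the 43603 probes on the array. All 9, with all 13 probes, passed the filter on dim probes, among 18308 genes tested of 25433 genes with a probe.

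Trehalose 6-phosphate synthase joins glucose from UDP-glucose to glucose 6-phosphate, trehalose 6-phosphate phosphatase (TPP) removes the phosphate, and trehalase splits the trehalose into glucose. In plants trehalose 6-phosphate is present at trace levels, follows the sucrose status and inhibits the energy-sensing kinase SnRK1 in growing tissue. TPS1 is the class I synthase on which embryo development depends. The class II proteins TPS5 to TPS11 carry a synthase-like and a phosphatase-like domain and are generally regarded as lacking synthase activity, and transcripts of several of them are known to follow the sugar supply.

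Wild-type Col-0 seedlings and seedlings in the same background with AFL1 (At14a-like 1) fused to yellow fluorescent protein under the constitutive 35S promoter were compared on 14 single-colour Agilent arrays of whole-seedling total RNA. Seedlings 7 days old, grown under continuous light, were placed on new control plates or on polyethylene glycol plates that imposed a low water potential of -1.2 MPa, and all were harvested 10 h later. Each treatment had 4 wild-type and 3 35S:YFP-AFL1 arrays. The labels do not say whether replicates were separate cultures or how many transgenic lines were used, so the p-values reflect only how these arrays vary, and part or all of that may be technical. The labels give no sugar content for the plates.

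AFL1 signal could check the genotype labels on control plates but not at low water potential. It was higher in 35S:YFP-AFL1 than in wild type on control plates by 2.41 on the log2 scale (limma, adjusted p = 0.00453), while at low water potential, where the wild-type gene itself was higher by 3.73, the genotypes differed by 0.32 (adjusted p = 0.526). The AFL1 level on wild-type control replicate 1 was 0.66. Wild-type control replicates 2 to 4 held -0.55 to 0.04, and the 35S:YFP-AFL1 control arrays held 2.08 to 2.51. On wild-type stress replicate 1 it was 3.47, where the other wild-type stress arrays, at 3.33 to 4.08, overlapped the 35S:YFP-AFL1 stress arrays, at 3.82 to 4.08. Shoot and root markers were all measured, EXP7 on 10 arrays and the other 7 on all 14. At low water potential RBCS1A, LHCB3 and CAB3, 3 of 4 shoot markers, were called lower in each genotype. The other, FDH, had positive changes that were not called, 0.29 in wild type (limma, adjusted p = 0.114) and 0.37 in 35S:YFP-AFL1 (adjusted p = 0.0828). The summed signal of the 4, relative to the 75th percentile, ran from 433 to 505 on control arrays and from 157 to 235 on stress arrays. Most of that sum is RBCS1A and CAB3. The summed root markers ran from 47.4 to 67.9 on control arrays and from 34.9 to 65.1 on stress arrays, and most of that sum is PYK10. At low water potential 1 of 4 root markers was called higher and 1 lower in wild type, and 1 higher and 2 lower in 35S:YFP-AFL1. The higher marker was COBL9 in both, at 0.59 and 0.68. CASP1, a Casparian strip gene, was lower in 35S:YFP-AFL1 than in wild type at low water potential by -1.46 on the log2 scale (adjusted p = 0.0244), 1 of 4 root markers called, and a slide block gave -0.93 for it (adjusted p = 0.383). The root hair gene EXP7, well above background on 1 of 3 arrays in each 35S:YFP-AFL1 group, differed by -1.34 (adjusted p = 0.0908). On control plates CASP1 differed by -0.86 (adjusted p = 0.277) and EXP7 by -1.38 (adjusted p = 0.193). The root marker COBL9 went the other way, with group means of 0.41 in 35S:YFP-AFL1 and 0.26 in wild type at low water potential. Its control means were -0.27 and -0.32. PYK10 had means of 5.14 and 5.58 at low water potential and 5.76 and 5.99 on control plates, in the same order. In RNA of whole seedlings, fewer cells of a type and less RNA per cell cannot be told apart, and the part of these shifts in the results below was not tested. Slide and genotype overlapped. All 35S:YFP-AFL1 control arrays shared slide 4 with wild-type control replicate 1, all 35S:YFP-AFL1 stress arrays shared slide 5 with wild-type stress replicate 1, and the other wild-type arrays were on slides 1 to 3.

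Levels are log2 signals relative to the 75th percentile of the same array, and they are compared between arrays for 1 gene at a time, never between genes. A gene was called higher or lower at a limma adjusted p under 0.05 over all 18308 genes, and errors on differences are standard errors. At low water potential wild type showed TPS6 and TPS10 higher and TPS9 and TRE1 lower, so 2 of the 9 genes were called higher and 2 lower, with a median log2 change of -0.36. Over all genes 64.1% were called in wild type, 30.7% higher and 33.4% lower, with a median of -0.03, so the 4 calls of 9 are no more frequent than among all genes. In 35S:YFP-AFL1 the same comparison gave TPS6 and TPS10 higher and TPS8, TPS9, TPS11 and TRE1 lower, 2 genes higher and 4 lower with a median of -0.52. There 63.3% of all genes were called, 30.1% higher and 33.3% lower, with a median of -0.04. Neither genotype comparison called any of the 9 genes.

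**Figure D1:**
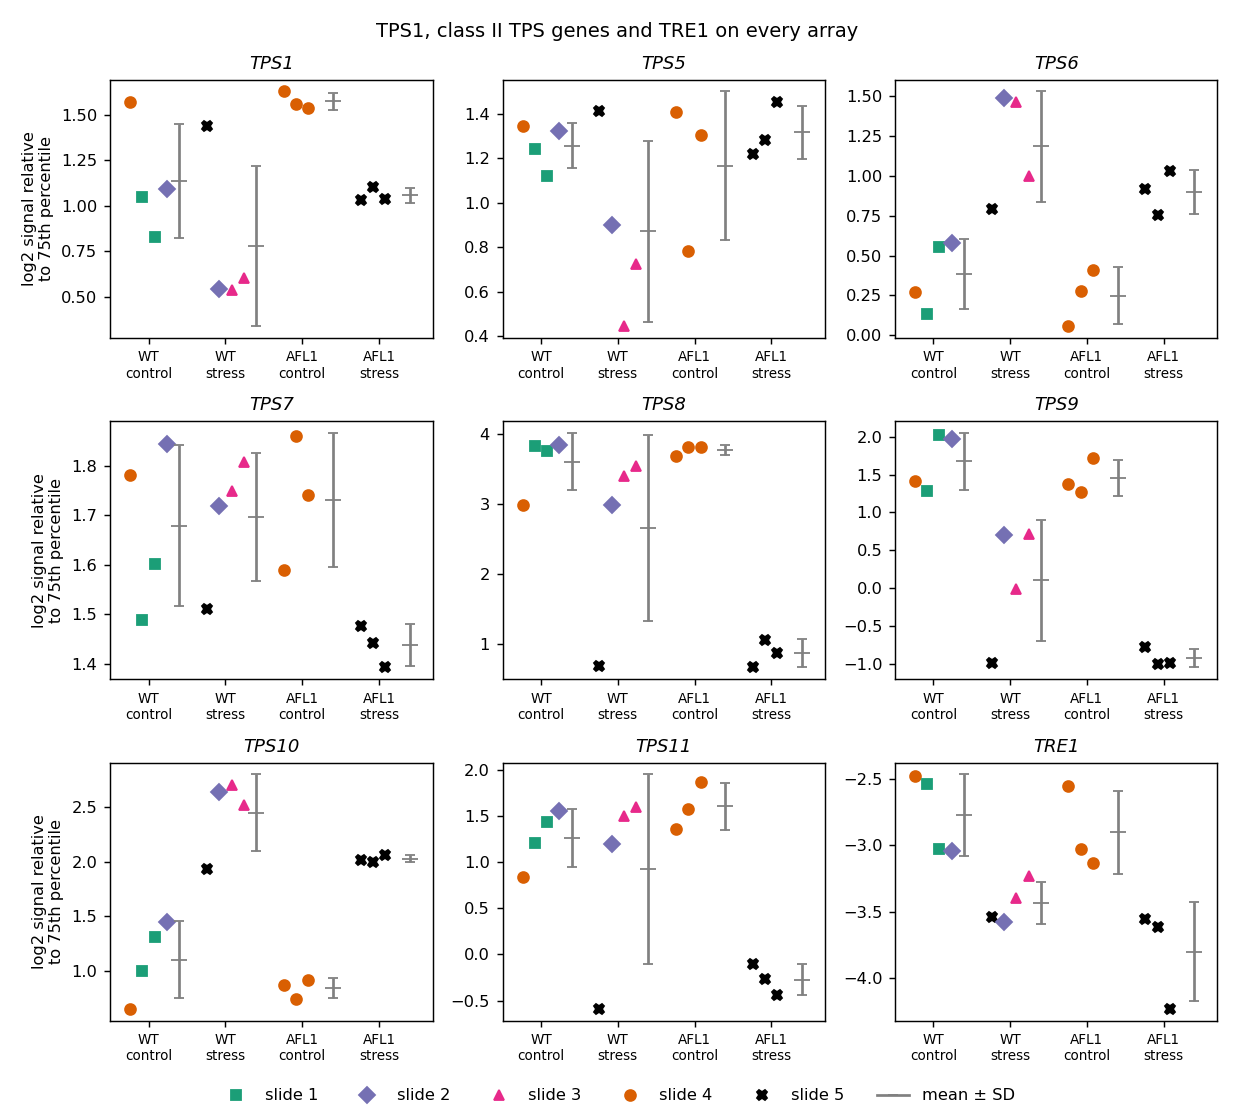
Level of each gene on every array, as log2 signal relative to the 75th percentile of the array (y axis, own range for each gene), by group (x axis), with marker shape and colour for the slide and grey bars for the mean ± SD of 3 or 4 arrays. For TPS8, TPS9 and TPS11 the wild-type stress array on slide 5 lies with the 35S:YFP-AFL1 stress arrays of that slide, and the other wild-type stress arrays lie higher.

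TPS1 (AT1G78580), the class I synthase, was not called in either genotype. Its level was 1.57, 1.05, 0.83 and 1.09 on wild-type control replicates 1 to 4 and 1.44, 0.54, 0.54 and 0.60 on wild-type stress replicates 1 to 4. It was 1.63, 1.56 and 1.54 on the 35S:YFP-AFL1 control arrays and 1.03, 1.101 and 1.04 on the 35S:YFP-AFL1 stress arrays. Wild-type replicate 1 of each treatment stood above the other wild-type arrays, so the wild-type treatments overlapped, while those of 35S:YFP-AFL1 did not. The stress change was -0.36 ± 0.20 in wild type (adjusted p = 0.135) and -0.52 ± 0.23 in the transgenic seedlings (adjusted p = 0.0651). Both passed the test when wild-type stress replicate 1 was left out, at -0.58 (adjusted p = 0.00355) and -0.52 (adjusted p = 0.00979). No wild-type array enters the 35S:YFP-AFL1 change, so there only the spread estimated over all groups became smaller. With the slide as a block both also passed, at -0.55 and -0.94. The wild-type value is then that of 1 stress array against 1 control array on slide 2. The 35S:YFP-AFL1 value combines that pair with comparisons to the 1 wild-type array on each of slides 4 and 5. These passes are therefore weak, and the same holds for every slide block value of a stress response below. A second, dimmer TPS1 probe had wild-type and transgenic changes of -0.33 (adjusted p = 0.188) and 0.20 (adjusted p = 0.486), so the probes of TPS1 differed in sign in the latter. The other class I genes, TPS2, TPS3 and TPS4, had probes but none passed the filter on dim probes.

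TPS10 (AT1G60140), a class II gene, had the largest rise among the 9 genes in both genotypes. Its levels were 0.65, 0.997, 1.31 and 1.45 on the wild-type control arrays in replicate order and 1.93, 2.64, 2.70 and 2.52 on the wild-type stress arrays. In 35S:YFP-AFL1 it read 0.87, 0.74 and 0.92 on control and 2.01, 2.00 and 2.06 at low water potential. Every stress array lay above every control array. TPS10 was 2.54-fold higher in wild type (log2 change 1.34 ± 0.19, adjusted p = 3.25e-05) and 2.27-fold higher in the transgenic seedlings (1.18 ± 0.22, adjusted p = 0.000348). Its second probe gave 1.25 and 1.30.

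TPS6 (AT1G68020), a class II gene whose mutants have altered epidermal cell shape, rose less. Wild-type control arrays held 0.27, 0.13, 0.55 and 0.58 and wild-type stress arrays 0.79, 1.48, 1.46 and 0.995. The 35S:YFP-AFL1 arrays gave 0.06, 0.28 and 0.41 on control plates and 0.92, 0.75 and 1.03 at low water potential. Stress and control arrays did not overlap, and wild-type stress replicate 1 was the lowest of its group. The rise was 1.74-fold in wild type (0.80 ± 0.17, adjusted p = 0.00108) and 1.57-fold in the transgenic seedlings (0.65 ± 0.20, adjusted p = 0.0109). The value in 35S:YFP-AFL1 was 1.03, with adjusted p = 0.107, when the slide was a block.

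TPS9 (AT1G23870), a class II gene, fell in both genotypes. Wild-type control levels were 1.41, 1.29, 2.02 and 1.97, and wild-type stress levels were -0.98, 0.70, -0.01 and 0.72. The 35S:YFP-AFL1 levels were 1.37, 1.26 and 1.72 on control and -0.78, -0.99 and -0.99 at low water potential. No stress array reached a control array, and wild-type stress replicate 1 lay among the 35S:YFP-AFL1 stress arrays. The fall was 2.96-fold in wild type (-1.57 ± 0.32, adjusted p = 0.000764) and 5.17-fold in the transgenic seedlings (-2.37 ± 0.37, adjusted p = 8.34e-05). The wild-type change was -1.21 (adjusted p = 0.000473) when wild-type stress replicate 1 was left out. In 35S:YFP-AFL1 a slide block gave -1.25, and its adjusted p of 0.156 ended the call.

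TPS8 (AT1G70290), another class II gene, gave the widest range of values. On the wild-type arrays it was 2.99, 3.82, 3.76 and 3.85 in control and 0.69, 2.99, 3.39 and 3.54 at low water potential. On the 35S:YFP-AFL1 arrays it was 3.69, 3.82 and 3.82 in control and 0.66, 1.06 and 0.87 at low water potential. All 35S:YFP-AFL1 stress arrays were far below the controls, and of the wild-type stress arrays only replicate 1 was as low. TPS8 was 7.52-fold lower at low water potential in 35S:YFP-AFL1 (-2.91 ± 0.56, adjusted p = 0.000491). In wild type the change was -0.95, with a 95% confidence interval from -1.999 to 0.09 and adjusted p = 0.101. Leaving out wild-type stress replicate 1 made it -0.30 (adjusted p = 0.222), and without replicate 1 of both wild-type treatments -0.50 (adjusted p = 0.0109). A slide block gave -0.86 in wild type (adjusted p = 0.00849) and -1.47 in 35S:YFP-AFL1 (adjusted p = 0.00715). The wild-type value rests on the 1 stress and 1 control array of slide 2, and the 35S:YFP-AFL1 value includes it.

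TPS11 (AT2G18700), a class II gene known from studies of aphid resistance, showed the same arrangement of arrays. Its wild-type control levels of 0.84, 1.20, 1.44 and 1.56 stood against wild-type stress levels of -0.59, 1.20, 1.502 and 1.60. In 35S:YFP-AFL1 the control levels were 1.36, 1.58 and 1.87 and the stress levels -0.11, -0.27 and -0.44. Wild-type stress replicates 2 to 4 overlapped the wild-type controls, and replicate 1 was below every other array. TPS11 fell 3.68-fold in 35S:YFP-AFL1 (-1.88 ± 0.44, adjusted p = 0.00228), while the wild-type change was -0.33 ± 0.38 (adjusted p = 0.467) and 0.17 without wild-type stress replicate 1 (adjusted p = 0.421). Its second probe gave -1.74 in 35S:YFP-AFL1 and -0.22 in wild type. The fall in 35S:YFP-AFL1 was -0.81 with a slide block and lost its call (adjusted p = 0.151).

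TPS5 (AT4G17770) and TPS7 (AT1G06410), class II genes whose proteins bind 14-3-3 proteins, were not called in either genotype. TPS5 read 1.35, 1.24, 1.12 and 1.32 on wild-type control arrays, 1.41, 0.90, 0.45 and 0.73 on wild-type stress arrays, 1.41, 0.79 and 1.30 on 35S:YFP-AFL1 control arrays and 1.22, 1.28 and 1.45 on 35S:YFP-AFL1 stress arrays. Wild-type stress replicates 2 to 4 lay below all wild-type controls and replicate 1 above all of them, while the 35S:YFP-AFL1 treatments overlapped. The TPS5 change was -0.38 ± 0.19 in wild type (adjusted p = 0.0907) and 0.15 ± 0.22 in the transgenic seedlings (adjusted p = 0.562). Without wild-type stress replicate 1 the wild-type change was -0.56 (adjusted p = 0.00711). TPS7 stayed between 1.39 and 1.86 on all 14 arrays, with its lowest levels, 1.48, 1.44 and 1.39, on the 35S:YFP-AFL1 stress arrays, below every control array of that genotype. Its change was 0.02 ± 0.11 in wild type (adjusted p = 0.902) and -0.29 ± 0.13 in the transgenic seedlings (adjusted p = 0.0609). That change passed the test in 7 of 27 alternatives, among them normexp background correction (-0.45, adjusted p = 0.0123). Another was leaving out wild-type stress replicate 1 (-0.29, adjusted p = 0.0394), which alters only the spread estimated over all groups and not the 35S:YFP-AFL1 change itself. A second TPS7 probe changed by -0.28 in wild type and passed the test (adjusted p = 0.0388), so the probes of TPS7 disagreed there.

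TRE1 (AT4G24040), the trehalase, was the only gene of the 9 with values near background. Wild-type control levels were -2.47, -2.54, -3.03 and -3.04, and wild-type stress levels were -3.54, -3.58, -3.39 and -3.23. The 35S:YFP-AFL1 levels were -2.55, -3.02 and -3.13 on control and -3.56, -3.62 and -4.24 at low water potential, where only replicate 1, 1 of 3 arrays, was well above background. Stress arrays lay below control arrays without overlap in both genotypes. TRE1 was 1.59-fold lower in wild type (-0.67 ± 0.19, adjusted p = 0.00873). In the transgenic seedlings the fitted change was -0.90 ± 0.22 (adjusted p = 0.00335), which includes the arrays not well above background, and raising those to the lowest signal well above background on the same array gave -0.77. The wild-type call ended under normexp background correction (-0.23, adjusted p = 0.144), under quantile normalization (-0.49, adjusted p = 0.0543) and with a slide block (-0.54, adjusted p = 0.294). A slide block also ended the call in 35S:YFP-AFL1 (-0.38, adjusted p = 0.666).

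**Figure D2:**
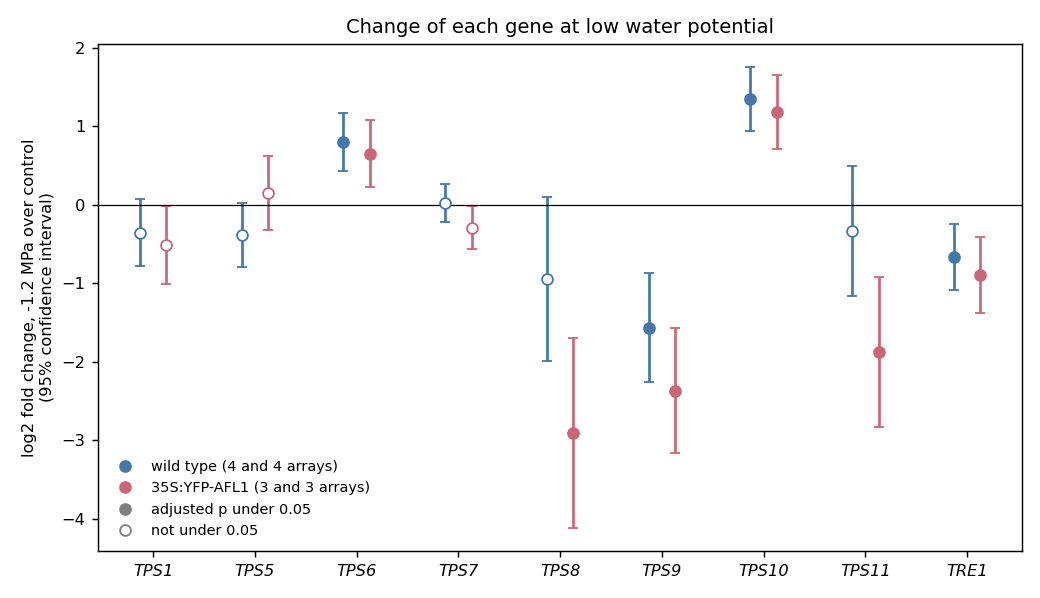
Change of each gene at -1.2 MPa against control, as log2 fold change with its 95% confidence interval from limma (y axis), in wild type (4 and 4 arrays) and 35S:YFP-AFL1 (3 and 3 arrays), filled where the adjusted p was under 0.05. TPS6 and TPS10 lie above 0 and TPS9 and TRE1 below 0 in both genotypes, and the intervals of TPS8 and TPS11 are the widest.

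The wild-type stress response could also be read within the batches that held both treatments. Beside the calls given above under other settings, the share of all genes called in wild type was 47.6% with a slide block, 65.9% without wild-type stress replicate 1 and 66.1% without wild-type replicate 1 of both treatments. In 35S:YFP-AFL1 these shares were 35.9%, 66.8% and 68.6%. On slide 2, with 1 array of each treatment, TPS10 changed by 1.19, TPS6 by 0.91, TPS9 by -1.28, TRE1 by -0.54, TPS8 by -0.86 and TPS11 by -0.36. Within scan day 1 (1 stress and 3 control arrays) TPS10 changed by 1.39, TPS6 by 1.06, TPS9 by -1.06 and TRE1 by -0.71, and within scan day 2 (3 and 1) by 1.73, 0.81, -1.50 and -0.92. The 4 genes called in wild type kept their sign in each of these batches, which are parts of the arrays that gave the calls. Slide 2 was scanned on scan day 1, and both hold the same stress array, wild-type stress replicate 2. Every 35S:YFP-AFL1 array was scanned on scan day 2, and no slide held both treatments of that genotype.

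Between genotypes on control plates none of the 9 genes was called by limma, none had an unadjusted p under 0.05, and 0.0218% of all genes (4) were called, with 2065 at an unadjusted p under 0.05. The largest difference was that of TPS1, higher by 0.44 ± 0.22 in 35S:YFP-AFL1 (adjusted p = 0.47). Genes other than TPS1 lay between -0.26 and 0.35. Within slide 4 the TPS1 difference was 0.00 against the 1 wild-type array there, and the second TPS1 probe gave -0.54 over all arrays. Without wild-type replicate 1 of both treatments, TPS1 was called at 0.58 (adjusted p = 0.00575), where 7.64% of all genes were called. Leaving out only wild-type stress replicate 1 called none of the 9 here and 0.0492% of all genes.

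At low water potential the genotype difference was also called for none of the 9 genes, with 2.17% of all genes called, 1.69% lower and 0.475% higher, although 4 of the 9 and 3692 of all genes had an unadjusted p under 0.05. TPS8 was lower in 35S:YFP-AFL1 by -1.79 ± 0.52 on the log2 scale (adjusted p = 0.092). For TPS11 the difference was -1.20 ± 0.41 (adjusted p = 0.135), for TPS9 it was -1.03 ± 0.34 (adjusted p = 0.129), and for TPS5 it was 0.45 ± 0.20 (adjusted p = 0.243). TPS7 was the only one of the 9 whose genotypes did not overlap, at -0.26 ± 0.12 (adjusted p = 0.248). The share of all genes without overlap was not computed. On the second TPS7 probe the genotypes overlapped, with a difference of -0.02 (limma, adjusted p = 0.941).

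These differences rested on which wild-type array was counted. Wild-type stress replicate 1 lay outside the range of the other 3 wild-type stress arrays for 8 of the 9 genes, and for 8 of the 9 it was nearer to the 35S:YFP-AFL1 stress mean than to the mean of those 3. On the control side, wild-type replicate 1 did so for 6 and 6 of the 9. At low water potential the same counts were 4 and 4 of 4 shoot markers and 3 and 1 of 4 root markers. Any 1 array of 4 is often the outermost by chance. The share over all genes was not computed, so these counts are not a result about the 9 genes. Without wild-type stress replicate 1, 6 of the 9 genes were called, while the share of all genes called went to 19.2%. TPS8 (-2.44, adjusted p = 8.08e-05), TPS11 (-1.71, adjusted p = 0.000278), TPS9 (-1.39, adjusted p = 0.00274) and TPS10 (-0.59, adjusted p = 0.0321) were lower in 35S:YFP-AFL1, and TPS5 (0.62, adjusted p = 0.0238) and TPS1 (0.50, adjusted p = 0.041) were higher. That array is singled out here by its values for these same genes. Leaving it out moved the wild-type mean away from the 35S:YFP-AFL1 mean for each of the genes called. The calls therefore follow in part from that choice and are no separate support. Without that array the root marker CASP1 differed by -1.64 (adjusted p = 0.00302), and its part in these calls was not tested. Within slide 5, against the 1 wild-type array there, the same genes differed by 0.18, 0.32, 0.06, 0.09, -0.09 and -0.38 in that order. The range of all 9 within slide 5 was -0.38 to 0.32. The TPS1 call rests on its brighter probe. Its second probe gave a genotype difference of -0.01 with all arrays (limma, adjusted p = 0.989). That probe read -0.18 to 0.07 on the 35S:YFP-AFL1 stress arrays and -0.52 to 0.50 on wild-type stress replicates 2 to 4. Leaving out wild-type replicate 1 of both treatments also gave 6 calls of 9, with 22.7% of all genes called. Whether the slide, the genotype, wild-type replicate 1 itself or an exchanged sample sets these values cannot be told apart with this layout. The AFL1 levels given above place wild-type control replicate 1 below every 35S:YFP-AFL1 control array, and they do not separate the genotypes at low water potential.

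**Figure D3:**
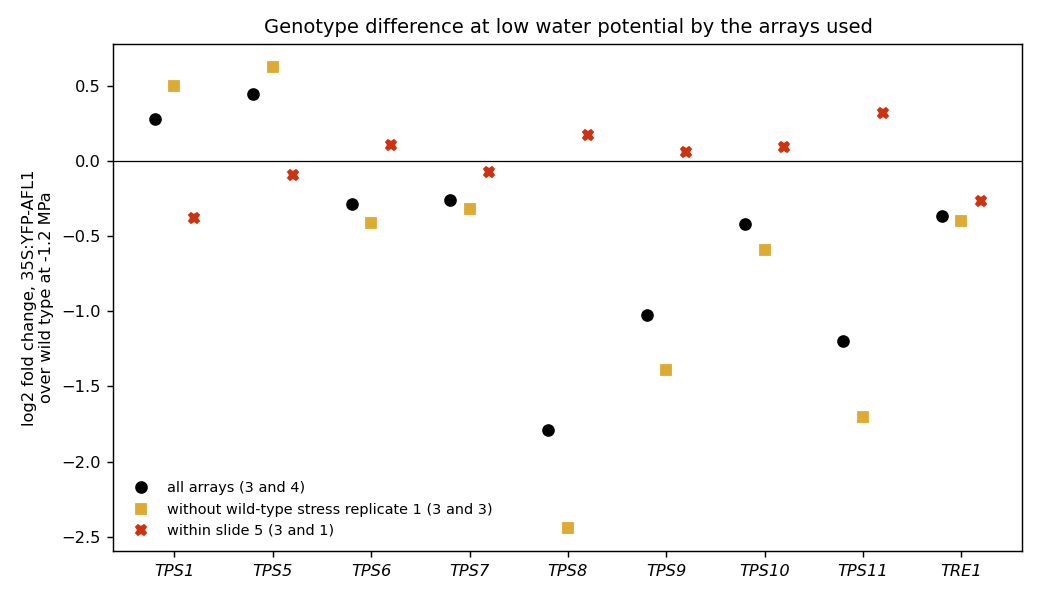
Genotype difference at -1.2 MPa for each gene, as log2 fold change of 35S:YFP-AFL1 over wild type (y axis), from all arrays (circles), without wild-type stress replicate 1 (squares) and within slide 5 (crosses, 3 against 1 array). The TPS8 value is -1.79 with all arrays, -2.44 without that replicate and 0.18 within slide 5.

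The difference of the stress responses, 35S:YFP-AFL1 minus wild type, was called for none of the 9 genes and for 0% of all genes, with 2 of the 9 and 1782 of all genes at an unadjusted p under 0.05. For TPS8 it was -1.96 (95% confidence interval -3.56 to -0.36, adjusted p = 0.415) and for TPS11 -1.55 (-2.81 to -0.28, adjusted p = 0.417). For TPS10 it was -0.16 (-0.78 to 0.46) and for TPS6 -0.15 (-0.71 to 0.41). Without wild-type stress replicate 1, TPS8 (-2.61, adjusted p = 0.00113) and TPS11 (-2.05, adjusted p = 0.00211) were called, against 4.12% of all genes, and the same 2 genes were called without wild-type replicate 1 of both treatments, against 6.41%. A slide block gave -0.61 (adjusted p = 0.414) and -0.45 (adjusted p = 0.668), respectively. As above, wild-type stress replicate 1 was singled out by its values for these same genes, so the calls without it follow in part from that choice.

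Among themselves the genes fell into patterns over the 14 arrays, given as a description because treatment, genotype and slide run through all arrays. The levels of TPS8 and TPS11 had a Pearson r of 0.971, those of TPS8 and TPS9 of 0.914, and those of TPS6 and TPS10 of 0.948, while TPS1 and TPS10 had -0.819. The tested genes with a symbol that were most like each member, by Pearson r over the 14 arrays, were BGAL1 (0.987) and BXL1 (0.979) for TPS8, BXL1 (0.975) and SPX4 (0.969) for TPS11, and scpl31 (0.982) and PIN3 (0.980) for TPS9. For TPS10 they were HGO (0.986) and AGL20 (0.985), for TPS6 AP19 and JOSL (both 0.948), and for TPS1 XRN2 (0.973) and SVR7 (0.965). TPS5, TPS7 and TRE1 had less close partners, ATL4H (0.865), ICE1 (0.888) and ZIP5 (0.933).

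The neighbouring steps of the pathway were described from lists of loci. UGP1 and UGP2, the UDP-glucose pyrophosphorylases that make the glucose donor, were both called higher in both genotypes, UGP1 by 0.86 and 1.08 and UGP2 by 0.57 and 0.43 in wild type and 35S:YFP-AFL1. Of the 10 phosphatase genes 8 had a probe and 6 were tested, and in each genotype 4 were higher and 2 lower, with a median of 1.48 in wild type and 1.77 in the transgenic seedlings, or 1.20 and 0.98 with the genes that have only a bound set at it. TPPD and TPPI passed the filter only through the stress arrays and TPPH only through the control arrays, so the filter fixed their directions. These counts and medians, which include the 3 genes, therefore support nothing. Counting only genes well above background on some array of both treatments, 2 were higher and 2 lower in wild type, TPPH among the latter. In 35S:YFP-AFL1, 2 were higher and 1 lower. TPPJ went from -3.41 to -2.97 on wild-type control arrays to between -0.58 and 0.36 on wild-type stress arrays, a change of 3.06 ± 0.18 (adjusted p = 8.38e-09), and changed by 3.81 ± 0.21 in the transgenic seedlings (adjusted p = 4.63e-09). TPPD and TPPI were not well above background on any control array, so their rise has only a bound, from the lowest signal well above background on each control array. TPPD was at least 3.53-fold higher in wild type and at least 3.54-fold higher in the transgenic seedlings, and TPPI at least 4.67-fold and at least 2.51-fold higher.

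TPPE rose by 0.58 and 0.64 in the same order. TPPA fell by 2.81 in wild type and by 2.77 in the transgenic seedlings on the log2 scale. TPPH had a fitted change of -1.93 ± 0.39 in wild type, where 1 of 4 stress arrays was well above background, and of -1.36 with the other stress arrays raised to the lowest signal well above background. It was at least 2.55-fold lower in 35S:YFP-AFL1, where no stress array was. The phosphatases TPPB and TPPC had probes that did not pass the filter, and TPPF and TPPG had no matched probe.

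The SnRK1 kinase, which trehalose 6-phosphate inhibits, had 5 of 6 listed subunit genes tested, with 2 called higher and 1 lower in each genotype. The catalytic subunit gene KIN10 was higher by 0.76 and 0.97 and the regulatory KINB3 by 0.64 and 0.57 in wild type and 35S:YFP-AFL1, and the regulatory KINB1 changed by -1.38 and -2.51. KIN11 and SNF4 were not called, with values between -0.20 and 0.20. Of 6 genes known to be raised by starvation, darkness or SnRK1, 4 were lower in each genotype and none was higher, with medians of -1.79 and -3.48. Leaving out wild-type stress replicate 1 made the wild-type median -1.03, and a slide block made that of 35S:YFP-AFL1 -1.28. DIN10, a raffinose synthase-like gene, changed by -3.31 ± 0.50 in wild type (adjusted p = 6.17e-05) and -5.09 ± 0.58 in the transgenic seedlings (adjusted p = 4.56e-06), and SEN1 and SEN5 were called lower in both. The fourth call in wild type was DYL1, a dormancy-associated gene, at -0.65 (adjusted p = 0.0121), which changed by -0.04 in the transgenic seedlings (adjusted p = 0.901). The fourth in 35S:YFP-AFL1 was DIN6, an asparagine synthetase gene, which changed by -0.96 in wild type (adjusted p = 0.229) and -2.70 in the transgenic seedlings (adjusted p = 0.00823). Of 6 listed bZIP transcription factors 2 were tested, BZIP44, which was higher by 1.49 and 1.66, and BZIP63, a SnRK1 substrate, which changed by -4.02 and -5.29. These lists are small, and the shares of all genes called in each direction, given above, are the background to their counts.

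**Figure D4:**
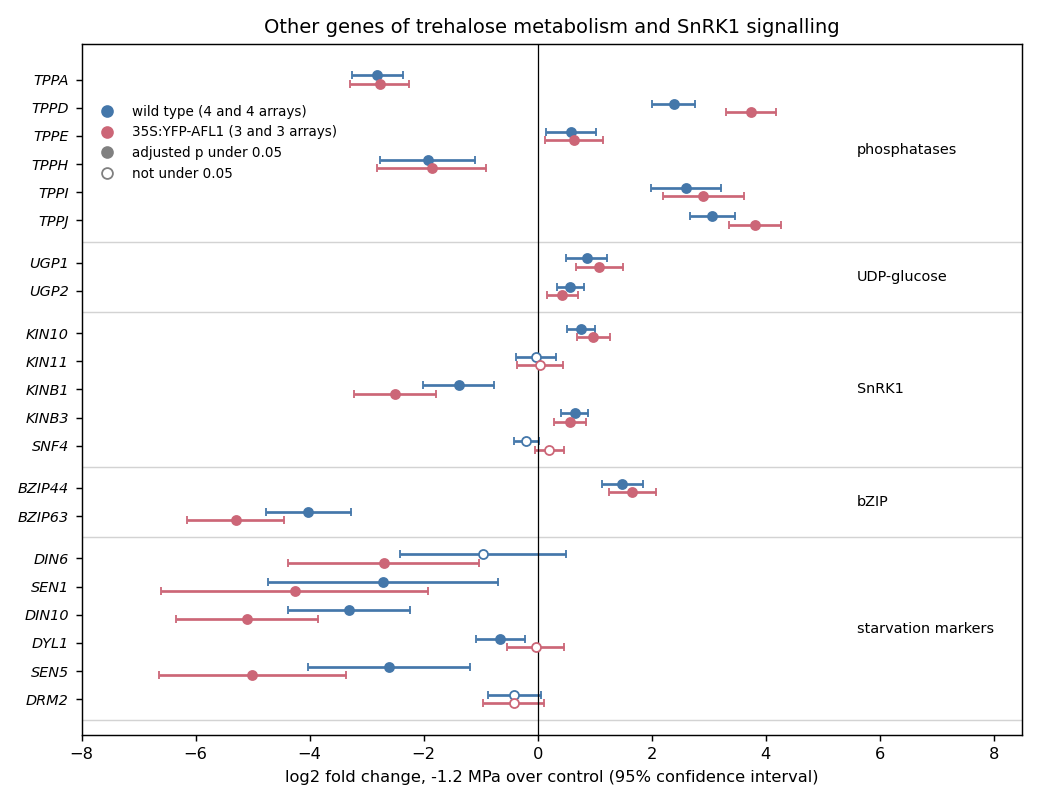
Change at -1.2 MPa against control of the tested phosphatase, UDP-glucose pyrophosphorylase, SnRK1 subunit, bZIP and starvation marker genes, as log2 fold change with its 95% confidence interval (x axis), in wild type and 35S:YFP-AFL1, filled where the adjusted p was under 0.05. TPPJ, TPPI and TPPD lie highest and BZIP63 lies lowest in wild type, and the plotted values of TPPD, TPPI and TPPH are fitted values that include arrays on which the probe was not well above background.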

How the data were processed

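Agilent Feature Extraction 10.7.1.1 produced the spot intensity values, per the file headers and the submitters' processing notes, as background-subtracted linear signals. The series table that was deposited repeats those intensity values (largest relative difference 0.000599), linear and not centred, with column medians from 137.8 to 288.5. No normalization between arrays was found in it. Here, log2 of the processed intensity deposited by the authors was taken relative to the 75th percentile of each array, over spots that were not controls. Spots with an outlier mark were dropped if the probe had another spot, and the spots of each probe were averaged. Probe accessions were matched to loci with the TAIR10.1 gene table, which named 34358 probes (78.8%). Testing required a probe to be well above background in a group on 3 or more arrays, and the brightest probe stood for its gene.

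The comparisons used limma 3.58.1 (R 4.3.3), with 4 group means fitted together to the 14 arrays and 10 residual degrees of freedom, and p-values were adjusted by the Benjamini-Hochberg method over all 18308 genes. The code was tested on simulated data. The 75th percentile ran from 796 to 1591, between 59.5% and 67.0% of spots were well above background, and 0 were saturated. Arrays of a group correlated at 0.936 to 0.989, and their number limits the precision. The 9 genes and the pathway lists were chosen with earlier results of these data known. Genes named are the members, the listed pathway genes and, for each member, the 2 genes with the highest Pearson r. Slide and scan day come from the file headers. With the slide as a block, a genotype difference is the value within slide 4 or 5, the wild-type response is the value on slide 2, and the 35S:YFP-AFL1 response is their combination. Alternatives covered scaling, background correction, probe filter and rule, source of values, slide, scan day, replicate number and left-out arrays. No sequences or coordinates were used.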

Additional observations from a re-analysis of the deposited data

Results flagged for a closer look

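TPS1 on wild-type stress replicate 1 read 1.438, above the other wild-type stress arrays at 0.537 to 0.603, and its gap filled 0.927 of the range of the group. TPS8 on wild-type control replicate 1 read 2.991, below the other wild-type control arrays at 3.765 to 3.845, with a gap of 0.906 of the range. Both gaps exceed the 95% critical value of Dixon's test for 4 arrays, which 2 of the 18 sets of wild-type arrays did, where chance gives about 1 in 20. Both arrays are the wild-type arrays on the slides that hold the 35S:YFP-AFL1 samples. Without them, the TPS1 stress response in wild type was -0.43 (adjusted p = 0.00225) and that of TPS8 was -0.50 (adjusted p = 0.0109). The part of the slide in these readings was not tested apart from the replicate.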

How the results depend on the processing

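No called change of a member turned its sign under any alternative run. Without wild-type stress replicate 1, 6 members were called for the genotype difference at low water potential and 2 for the difference of the stress responses, where none was called with all arrays. That array was singled out by its values for these same genes. Without wild-type replicate 1 of both treatments, chosen after seeing the data, the counts were 6 and 2, and 1 for the genotype difference in control. With the slide as a block, 3 members were called for the stress response in 35S:YFP-AFL1 in place of 6. The share of all genes called went from 63.3% to 35.9%, so the drop is not particular to the members. TPS6, TPS9, TPS11 and TRE1 lost their calls, and TPS1 gained a call. Leaving out each array in turn gave 4 to 6 members for the stress response in wild type, 6 to 8 in 35S:YFP-AFL1, 0 to 0 for the genotype difference in control, 0 to 6 at low water potential and 0 to 2 for the difference of the responses. Over the same fits the share of all genes called was 60.2% to 65.9%, 57.9% to 66.8%, 0.0109% to 2.93%, 0.0655% to 19.2% and 0% to 4.12% in that order. The cause of these changes was not tested. Without wild-type replicate 1 of both treatments, TRE1 in wild type was -0.53 (adjusted p = 0.0512), and within scan day 1 it was -0.71 (adjusted p = 0.0732). Median scaling moved the median change of all genes to 0.13 in wild type and 0.17 in the transgenic seedlings, with splits of 6786 higher against 5135 lower and 6993 against 5035, where the 75th percentile gave 5627 against 6109 and 5502 against 6090, and the medians of the members were then -0.20 and -0.31. Over all genes, the genotype difference at low water potential gave 397 calls with all arrays, 62 with the slide as a block, 199 with the replicate block, 620 under normexp, 252 with the scan day as a block, 237 without the probe filter and 1 in a fit of the 2 groups alone. Whether replicate numbers pair the samples was not settled. Deviations of same-numbered arrays correlated at over 0.1 in 6 of 19 pairs, with a range of -0.12 to 0.40. The highest was between replicates 1 of the wild-type control and stress groups. Of 12 arrays, 7 correlated best with their own number. A replicate block added TPS8 in wild type (-0.95, adjusted p = 0.0477) and TPS1 in 35S:YFP-AFL1 (-0.52, adjusted p = 0.0407). Normexp on the mean signal was not run because the files hold the median signal, which was used in its place after seeing the files. TRE1 is limited by signal near background.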

Other observations

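Among the other genes of the pathway, none of the phosphatases, SnRK1 subunits, starvation markers, bZIP factors or UDP-glucose pyrophosphorylases tested was called by limma between the genotypes at low water potential with all arrays. DIN10 read -0.46 on wild-type stress replicate 1, 1.76 to 2.62 on the other wild-type stress arrays and -0.18 to 0.02 on the 35S:YFP-AFL1 stress arrays. SEN5 read 0.79, 3.92 to 5.12 and 1.01 to 1.26 in the same order. Without wild-type stress replicate 1, where 19.2% of all genes were called and 10.9% were lower, 4 of 6 starvation markers were lower in 35S:YFP-AFL1, SEN1 by -3.60 (adjusted p = 8.08e-05), SEN5 by -3.29 (adjusted p = 4.91e-05), DIN6 by -2.86 (adjusted p = 0.00111) and DIN10 by -2.26 (adjusted p = 0.000308). KINB1 (-1.47, adjusted p = 0.000418) and BZIP63 (-1.65, adjusted p = 0.000268) were then lower too, and TPPJ was higher (0.86, adjusted p = 0.00453). On wild-type stress replicate 1 each of these genes was nearer to the 35S:YFP-AFL1 stress mean than to the mean of the other wild-type stress arrays. The calls without that array therefore follow in part from leaving it out, and slide and genotype cannot be told apart here. Within slide 5 the differences were 1.65 for SEN1, 0.32 for SEN5, 0.52 for DIN6, 0.36 for DIN10, -0.05 for KINB1, 0.12 for BZIP63 and 0.20 for TPPJ, none of them called.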
